A study of Mus musculus with 4 samples.

Results

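The 10 genes of sarcoplasmic reticulum calcium handling were followed in the ventricular RNA of transgenic mice that overexpress serum response factor (SRF): Casq1, Casq2, Hrc, Atp2a1, Atp2a2, Pln, Ryr2, S100a1, Slc8a1 and Sln. They were chosen by name, with earlier results of these data known. A probe set is the group of oligonucleotides on an array that reads out 1 transcript. Each one annotated with exactly 1 gene symbol was used if that symbol was in the list. This gave 14 probe sets for 9 of the 10 genes, among 8251 genes measured in all. The RNA level of Pln was not analysed here. The genes differ in isoform use between striated muscles, so the skeletal isoforms Casq1 and Atp2a1 were read against the cardiac isoforms Casq2 and Atp2a2.

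The tissue was cardiac ventricle of mice at 6 months of age, and the groups were 2 non-transgenic samples and 2 samples of mice in which a transgene raised SRF moderately and only in the heart. The SRF transcript is not analysed here, so its excess was not checked on these arrays. Each sample was hybridised to 1 Affymetrix array, so n = 2 in each group. Not given in the sources used here are the strain, the sex, the promoter driving the transgene and whether a sample was 1 animal or a pool. No label says that the samples are separate animals. The p-values weigh group differences against the spread between these samples, pooled in part with that of other probe sets. That spread may therefore be technical.

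In a resting cardiomyocyte, calcium is stored in the sarcoplasmic reticulum, bound to calsequestrin and to the histidine-rich calcium-binding protein. Each beat opens the ryanodine receptor and releases calcium onto the myofilaments. Relaxation follows as the SERCA pumps return calcium to the store, under restraint by phospholamban and sarcolipin, while the sodium-calcium exchanger carries the remainder out of the cell. Ventricle normally relies on the cardiac isoforms of calsequestrin and of the pump, and fast skeletal muscle on the skeletal ones. SRF binds the CArG box, a motif in the control regions of many muscle genes.

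Promoter windows are shown for both calsequestrin isoforms, of which Casq1 rose and Casq2 did not pass the test, and for the 2 genes with the largest falls, Hrc and Atp2a1. Each runs from 250 bases before to 50 bases after the gene's start, 5′ to 3′ on the gene's strand, in RefSeq's GRCm38.p6 mouse assembly. Capitals mark matches to the E box (CANNTG) or the MEF2 site, both bound by muscle transcription factors. No CArG box was found in these 4 windows.
Casq1 (chr1:172219846-172220145, minus strand): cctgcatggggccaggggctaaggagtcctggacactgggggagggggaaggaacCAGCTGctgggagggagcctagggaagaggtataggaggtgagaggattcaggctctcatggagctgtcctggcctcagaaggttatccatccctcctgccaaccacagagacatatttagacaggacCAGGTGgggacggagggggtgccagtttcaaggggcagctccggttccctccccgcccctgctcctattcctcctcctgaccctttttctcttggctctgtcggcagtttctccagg
Casq2 (chr3:102086165-102086464, plus strand): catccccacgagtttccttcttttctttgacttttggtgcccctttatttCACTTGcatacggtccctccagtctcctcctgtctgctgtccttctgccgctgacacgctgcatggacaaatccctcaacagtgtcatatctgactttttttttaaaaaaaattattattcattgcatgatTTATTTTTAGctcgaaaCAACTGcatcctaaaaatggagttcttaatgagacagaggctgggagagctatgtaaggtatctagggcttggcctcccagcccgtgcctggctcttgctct
Hrc (chr7:45335019-45335318, plus strand): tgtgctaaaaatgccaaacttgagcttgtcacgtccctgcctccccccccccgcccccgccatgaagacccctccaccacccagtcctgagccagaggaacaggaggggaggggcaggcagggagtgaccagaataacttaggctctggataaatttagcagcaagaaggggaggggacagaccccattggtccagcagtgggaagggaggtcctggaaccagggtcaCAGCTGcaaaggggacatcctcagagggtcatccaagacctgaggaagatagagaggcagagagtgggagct
Atp2a1 (chr7:126463024-126463323, minus strand): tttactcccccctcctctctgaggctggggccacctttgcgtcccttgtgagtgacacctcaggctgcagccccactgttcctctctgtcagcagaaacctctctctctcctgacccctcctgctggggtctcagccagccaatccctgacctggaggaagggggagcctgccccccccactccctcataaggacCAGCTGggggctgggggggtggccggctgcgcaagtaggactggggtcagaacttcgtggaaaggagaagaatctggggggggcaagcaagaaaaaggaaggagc

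Windows were found for 8 of the 10 genes, Pln included, and both strands were searched. The CArG box matched 0 of the 8 windows and 1.63% of all 32851 promoter windows in the table. The E box matched 7 of the 8, all but S100a1, against 72.3% of all windows. The MEF2 site, which does not overlap the E boxes, matched only Casq2 among the 8, against 3.19% of all. A match describes letters in the window and does not show that a factor binds there, and a missing match says only that these letters are not in this window.

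The transgenic ventricle had more RNA for skeletal calsequestrin, Casq1, and less for Hrc, the skeletal pump Atp2a1 and the calcium sensor S100a1. The cardiac pump Atp2a2 was lower by a small margin, and its call held under only 5 of 13 alternative settings. Cardiac calsequestrin, Casq2, the release channel Ryr2 and the exchanger Slc8a1 did not pass the test. Sln lay in the dimmest 40% of the table by mean signal and was not tested. In limma with Benjamini-Hochberg adjustment over 7453 probe sets, 1 of the 9 tested member probe sets was higher, 4 were lower and 4 did not pass an adjusted p of 0.05. Of all tested probe sets 7.93% were called, 4.07% higher and 3.86% lower. The median log2 change of the 9 was -0.25, against -0.01 over all tested probe sets. At an unadjusted p under 0.05 there were 7 of the 9, against 24.2% of all tested probe sets. The arrays of the groups were fully separated in 8 of the 9, against 55.9% of all. The other 5 member probe sets lay in the dimmest 40% of the table and were not tested. The members were chosen with earlier results of these data known, so the shares above are descriptive and do not test the list. For a given change, bright probe sets with small errors pass more easily (SE 0.07 for Atp2a2, 0.27 for the dimmer Atp2a1).

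**Figure D1:**
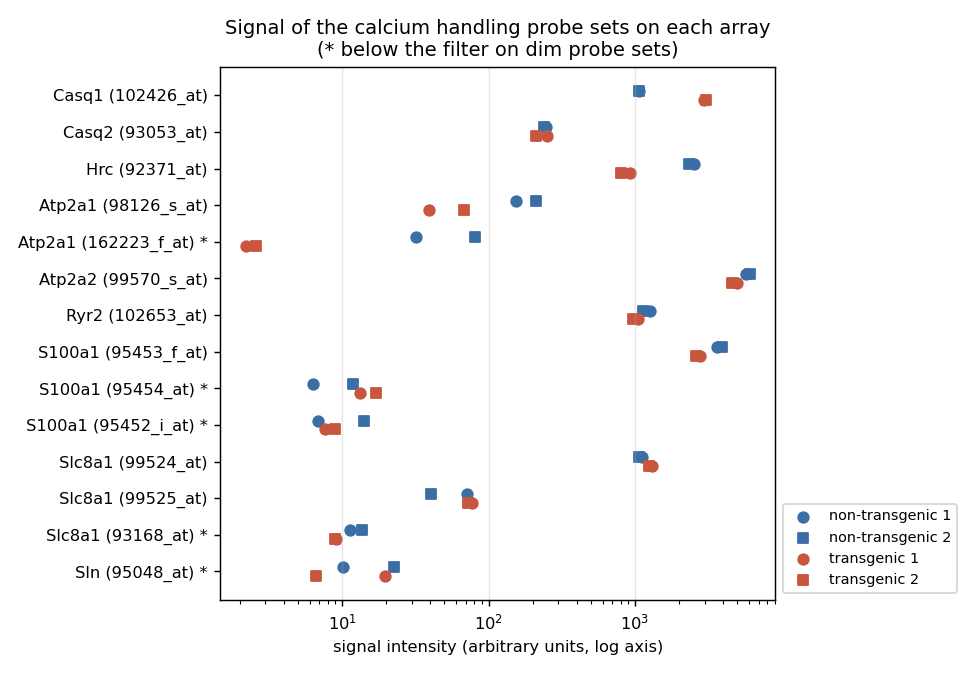
Signal intensity (arbitrary units, log axis) of the 14 probe sets of the calcium handling genes on each of the 4 arrays; colour gives the group and shape the replicate, and asterisks mark probe sets below the filter on dim signals. Casq1 lies higher on both transgenic arrays, Hrc and both Atp2a1 probe sets lie lower, and Casq2 overlaps between groups.

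Calsequestrin binds calcium inside the store with high capacity. Casq1, the isoform of skeletal muscle, had signals of 1062.2 and 1068.8 without the transgene and of 2955.7 and 3036.4 with it. Both transgenic arrays stood far above both non-transgenic ones, and the replicates of each group lay close together. The means were 1066 ± 4.67 and 2996 ± 57.1 (SD, n = 2 each). On the scale log2(signal + 9), on which all changes below are given, Casq1 rose by 1.48 ± 0.07 (SE), or 2.80-fold with a 95% interval of 2.48 to 3.16. The adjusted p was 0.000215 in limma, and the rise was the 36th largest of the 7453.

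Casq2, the cardiac isoform, had signals of 245.6 and 237.2 without the transgene and of 249.7 and 209.5 with it. The groups overlapped, since transgenic replicate 1 was the highest and transgenic replicate 2 the lowest of the 4. The change was -0.07 with a 95% interval of -0.40 to 0.25 (adjusted p = 0.789 in limma), so a fall to 0.756-fold or a rise to 1.19-fold would fit within the interval. The sign turned to 0.01 after median centring and to 0.05 without transgenic replicate 2.

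The difference between the calsequestrins shifted by more than the spread between replicates. Within each array, the log2 signal of Casq2 was subtracted from that of Casq1, and the mean difference of the non-transgenic arrays was set to 0. The non-transgenic arrays then stood at -0.03 and 0.03 and the transgenic arrays at 1.42 and 1.70, a shift of 1.56, or 2.94-fold, against SDs of 0.04 and 0.20 within the groups. An exact two-sided permutation test gave p = 0.333 (0.333 after adjustment over the 2 isoform pairs compared), which is the smallest p that 2 against 2 arrays allow. The difference describes unequal change and not which isoform is more abundant, because probe sets bind with different strength.

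**Figure D2:**
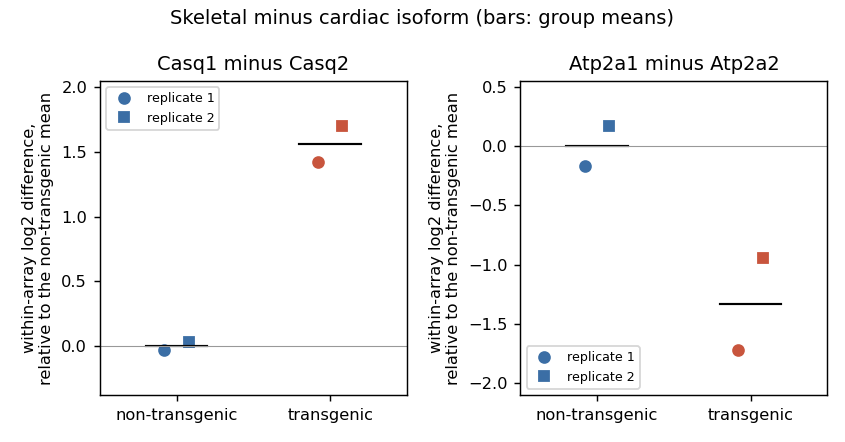
Within-array log2 difference between the skeletal and the cardiac isoform, relative to the non-transgenic mean, for calsequestrin (left) and the SERCA pump (right), with 1 point per array and bars at group means. The calsequestrin difference moves up by 1.56 and the pump difference down by 1.33 in the transgenic samples.

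The SERCA pumps load the store. Atp2a1 encodes SERCA1, the pump of fast skeletal muscle, and had 2 probe sets. The brighter one (98126_s_at) had signals of 154.4 and 210.4 without the transgene and of 39.4 and 68.2 with it. The groups did not overlap, and the replicates varied more than those of the bright members. Atp2a1 fell by 1.63 ± 0.27 on the log2 scale, to 0.323-fold with a 95% interval of 0.209 to 0.499 (adjusted p = 0.0155 in limma). Without non-transgenic replicate 2 the change was -1.42 and the adjusted p = 0.0552 in limma; over all 13 alternatives the adjusted p ranged from 0.00115 to 0.0724, and 11 kept the call. The dimmer probe set (162223_f_at) had signals of 32.2 and 81.1 against 2.2 and 2.6. It pointed the same way, but it lay below the filter and the low transgenic signals give no reliable fold.

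Atp2a1 was thus lower while Casq1, also a skeletal isoform, was higher. Markers of skeletal muscle were split in the same tissue. Of 26 probe sets for 19 of 21 listed skeletal genes, 12 were lower and 5 higher in the transgenic samples without overlap, and 9 overlapped. Over all 12422 probe sets, tested or not, 3603 were lower, 2588 higher and 6231 overlapped. None of the 26 skeletal probe sets was at 0 (lowest signal 0.6). Among the 13 that were tested, 2 rose and 0 fell in limma (3 and 3 at an unadjusted p under 0.05), with a median log2 change of -0.04. Without transgenic replicate 2 the counts were 3 and 1. The fast skeletal light chain Myl1 rose by 2.21 ± 0.08 and skeletal alpha-actin Acta1 by 0.84 ± 0.07, and these bright genes carried the summed signal of the list from 10842 and 10857 to 17041.5 and 16478.

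Transcripts of adult fast fibres, picked out after their values were seen, did not all lie on 1 side. Of those named next, the tested ones did not pass. Myh1, Tnni2, Actn3 and 98488_at of Myh4 lay below the filter and were not tested. The fast myosin heavy chain Myh1 had signals of 22.8 and 30.0 against 6.6 and 1.0. The fast troponin C gene Tnnc2 had 53.4 and 82.7 against 8.1 and 36.1 (162325_f_at; adjusted p = 0.114 in limma). The fast regulatory light chain Mylpf had 70.9 and 70.1 against 38.4 and 33.9 (adjusted p = 0.0635 in limma). The fast myosin heavy chain Myh4 had 11.9 and 16.5 against 0.6 and 0.9 (98488_at). The fast troponin I gene Tnni2 had 35.3 and 11.0 against 8.4 and 3.2. These genes had lower signals on both transgenic arrays, as Atp2a1 did. So did the brighter Myh4 probe set (161545_r_at) and Actn3 in 100879_at, while Actn3 in 162164_f_at overlapped between groups. The fast troponin T gene Tnnt3 overlapped between groups (41.5 and 44.2 against 38.8 and 41.7). The muscle enolase Eno3, bright on every array, changed by 0.03. Pvalb, for parvalbumin, changed by 0.68 in 1 probe set (96719_i_at) and by -0.48 in a dim one below the filter (96720_f_at). The part of skeletal muscle RNA in the fall of Atp2a1 was not tested.

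**Figure D3:**
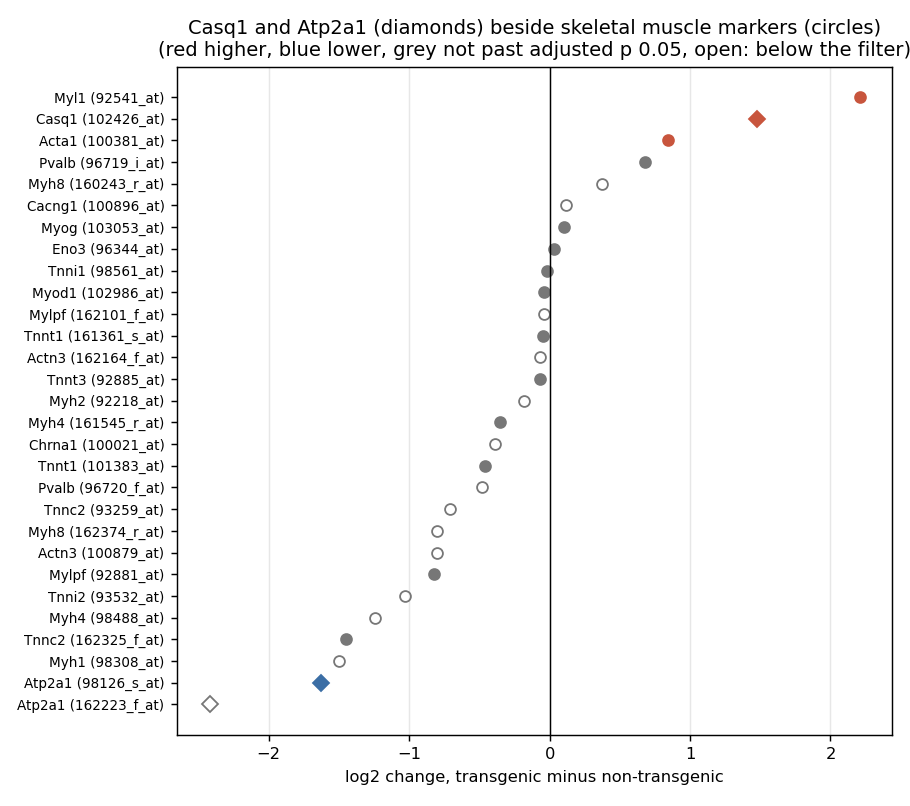
Log2 change (transgenic minus non-transgenic) of Casq1 and Atp2a1 (diamonds) and of 26 probe sets of the skeletal muscle marker list (circles); open symbols lay below the filter. Casq1 sits with Myl1 and Acta1 among the rises, and both Atp2a1 probe sets are the lowest points, next to Myh1 and Tnnc2.

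Transcripts of other tissues were also unequal between the groups. Hepatocyte markers summed to 2971 and 5675 without the transgene and to 257.5 and 323 with it, and 8 of 9 tested probe sets were lower. Among them Alb, the plasma protein albumin, fell by 4.58 ± 0.32 and Apoa1, an apolipoprotein, by 5.05 ± 0.25. None of the 11 probe sets for 9 of 12 listed hepatocyte genes was at 0 (lowest signal 0.5). Adipocyte markers summed to 514 and 665 against 309.9 and 340.4, and 1 of 3 tested probe sets was lower. This was Adipoq, the fat hormone adiponectin, which fell by 1.36 ± 0.19. Lep did not pass (log2 change -0.60, adjusted p = 0.159 in limma), and Fabp4 overlapped between groups (-0.07). Non-transgenic replicate 2 was the higher non-transgenic array in both sums and in both Atp2a1 probe sets. Skeletal genes with lower transgenic signals were mixed: replicate 2 was higher for Myh1 (22.8 and 30.0) and lower for Tnni2 (35.3 and 11.0). With 2 arrays in a group, such a match carries little weight. The part of RNA from hepatocytes or adipocytes in the fall of Atp2a1 was not tested.

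Atp2a2 encodes SERCA2, the pump of cardiac and slow muscle. Its signals were 5754.6 and 6101.6 without the transgene and 4985.5 and 4621.4 with it, among the brightest 1% of the table. The groups did not overlap, with means of 5928 ± 245 and 4803 ± 257 (SD, n = 2 each). The fall of 0.30 ± 0.07 on the log2 scale (0.810-fold, 95% interval 0.725 to 0.906) had an adjusted p of 0.0421 in limma. It lost the call without any 1 of the 4 arrays (adjusted p from 0.065 to 0.171 in limma) and after median centring or quantile normalization (adjusted p = 0.129 and 0.167), and also without a filter or without a trend of variance (0.131 and 0.255).

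Relative to Atp2a2 on the same array, Atp2a1 stood at -0.17 and 0.17 in the non-transgenic samples and at -1.72 and -0.94 in the transgenic samples. The shift was -1.33, with an exact two-sided permutation p = 0.333, again the smallest that the design allows. The Atp2a1 probe set thus fell by more than the Atp2a2 probe set on both transgenic arrays, opposite in direction to the calsequestrin pair. Both of these probe sets end in _s_at and can mix related transcripts. With a pseudocount of 32 the shift was -1.03.

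Sarcolipin and phospholamban restrain the pumps. Sln, which encodes sarcolipin and in mouse heart is known mainly from the atria, had signals of 10.1 and 22.8 without the transgene and of 19.6 and 6.6 with it. The groups overlapped, and the probe set lay below the filter, so no change could be measured. The signal stayed low while atrial markers summed to 1404 and 1553.5 against 3723 and 3427. Of the 8 tested atrial probe sets, 2 rose: the atrial light chain Myl7, by 1.38 ± 0.19, and the natriuretic peptide Nppa, by 2.14 ± 0.10. Nppa, with signals of 460.9 and 411.9 against 2023.7 and 1879.2, made up most of the rise in the sum. The other 6 did not pass, and their signs differed (0.92 for Myl4 in 160487_at, -0.63 for Gja5). In limma 0 fell, and 1 was lower at an unadjusted p under 0.05; without non-transgenic replicate 2 the number higher was 4. Of all 12 atrial probe sets for 9 of 9 listed genes, none was at 0.

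Hrc encodes the histidine-rich calcium-binding protein, which lies in the lumen of the store and binds both SERCA and triadin. Its signals were 2518.7 and 2327.9 without the transgene and 922.4 and 805.3 with it. No transgenic array reached the level of a non-transgenic one, and the gap was many times the spread between replicates. Hrc fell by 1.48 ± 0.10, to 0.358-fold with a 95% interval of 0.305 to 0.420 (adjusted p = 0.000604 in limma). The fall was the 44th largest of the 7453, and all 13 alternatives kept the call, with log2 changes from -1.58 to -1.38. Hrc and Casq1, both calcium-binding proteins of the store, thus changed by similar amounts in opposite directions.

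S100a1, a cytosolic calcium sensor that binds the ryanodine receptor and SERCA2, had 3 probe sets. The bright one (95453_f_at) had signals of 3622.6 and 3922.3 against 2772.8 and 2619.4. The groups did not overlap. The fall was 0.48 ± 0.07 on the log2 scale (0.716-fold, 95% interval 0.633 to 0.808; adjusted p = 0.0135 in limma). The other two probe sets were dim and disagreed. One (95454_at) had signals of 6.3 and 11.9 against 13.2 and 17.1, and the other (95452_i_at) of 6.9 and 14.1 against 7.6 and 9.0. Both lay below the filter and carry little weight.

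Ryr2, the calcium release channel of the heart, had signals of 1270.2 and 1136.3 without the transgene and of 1047.9 and 973.9 with it. Both transgenic arrays were lower, but the change of -0.25 ± 0.10 did not pass the test (95% interval -0.48 to -0.02; adjusted p = 0.176 in limma). It passed in 0 of the 13 alternatives, with adjusted p from 0.138 to 0.48 in limma.

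Slc8a1, the sodium-calcium exchanger of the cell surface, had 3 probe sets. The bright one (99524_at) had signals of 1113.8 and 1064.1 against 1300.5 and 1247.8, a change of 0.22 ± 0.08 (95% interval 0.03 to 0.42; adjusted p = 0.162 in limma). The middle one (99525_at) had 70.9 and 40.4 against 77.5 and 72.8, a change of 0.42 ± 0.26 (adjusted p = 0.377 in limma). Both were higher on both transgenic arrays without passing the test. The third (93168_at) was dim, below the filter and lower in the transgenic samples, with 11.4 and 13.7 against 9.1 and 9.0.

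**Figure D4:**
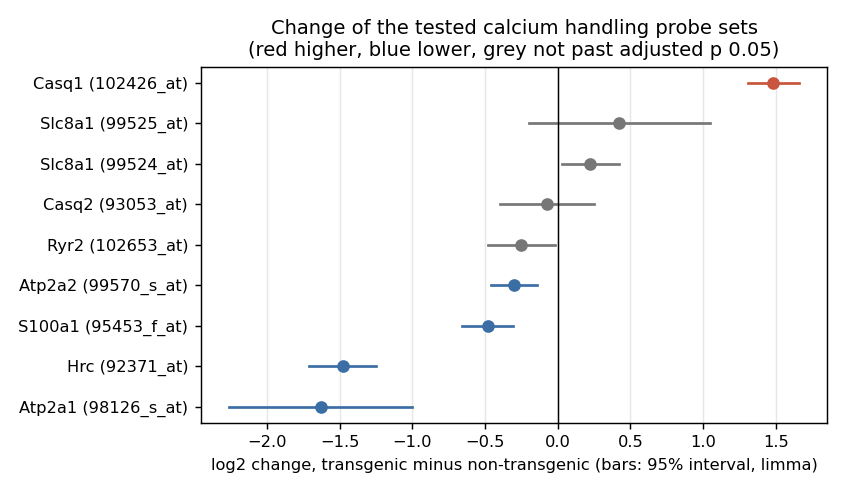
Log2 change (transgenic minus non-transgenic) of the 9 tested probe sets, with 95% intervals from limma. Casq1 at 1.48 is the 1 member past the threshold among the rises, and Atp2a2, S100a1, Hrc and Atp2a1 (-0.30 to -1.63) are past it among the falls.

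Several bright transcripts of ventricular cardiomyocytes were lower in the same samples. Of 12 tested probe sets for 10 of 11 listed markers, 6 fell in limma and 0 rose (1 higher at an unadjusted p under 0.05), with a median log2 change of -0.27. The ventricular light chain Myl3 fell by 0.57 ± 0.06 and cardiac troponin I, Tnni3, by 0.53 ± 0.05. Other bright markers did not pass, among them Mb in 100614_at (-0.07) and Actc1 in 101028_i_at (-0.08). Des changed by 0.28 and did not pass either (adjusted p = 0.141 in limma). The number lower was 2 after quantile normalization, where Tnni3 lost its call (adjusted p = 0.118 in limma) and Myl3 kept it, 3 after median centring and 0 without a trend of variance (5 at an unadjusted p under 0.05). Leaving out non-transgenic replicate 1 gave 3 lower, and leaving out the other non-transgenic array gave 2. The list summed to 95949 and 93458.5 without the transgene and to 76570.3 and 77775 with it, and none of its 13 probe sets was at 0. The changes of Atp2a2 and Ryr2 lay near that median, S100a1 fell by slightly less than Tnni3, and Hrc and Atp2a1 fell by more. Other members lay above the median: Casq2 changed by -0.07 and the tested Slc8a1 probe sets by 0.22 and 0.42, without passing, and Casq1 rose. In bulk tissue, fewer cells of a type and less RNA per cell cannot be told apart. The part of cardiomyocyte share in these falls was not tested.

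Of the fibroblast markers 8 of 14 tested probe sets rose, with a summed signal of 7862.5 to 7917 against 12263 to 12696. At an unadjusted p under 0.05, 9 were higher and 1 was lower. The lower was Pdgfra in 95079_at (log2 change -0.51), while its dimmer probe set 160332_at changed by 0.75. Of the macrophage markers 5 of 10 rose, with sums of 2473 to 2759 against 4034 to 4136. Of the smooth muscle markers 2 of 5 rose, Acta2 (by 1.85) and Mylk (by 0.76), while Tagln (0.16), Smtn (0.12) and Myh11 (-0.24) did not pass. Endothelial markers had 1 probe set higher and 1 lower of 10, with sums of 3963 to 4030 against 4153 to 4170. The number higher was 5 for fibroblasts without transgenic replicate 1 or non-transgenic replicate 2. For macrophages it was 3 without transgenic replicate 2 or non-transgenic replicate 1. Without a trend of variance, limma called 3 fibroblast, 0 macrophage and 1 smooth muscle probe sets higher (10, 8 and 2 at an unadjusted p under 0.05). Neither endothelial call remained without transgenic replicate 1 or transgenic replicate 2. The array medians lay between 49.0 and 53.85.

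Few genes of the wider calcium machinery passed the test. Of 74 further genes of calcium entry, release, extrusion and signalling, 44 were measured, with 41 probe sets of 34 genes tested. Of these 2 rose, 1 fell and 38 did not pass limma, a share near the 7.93% called over all tested probe sets, and the median log2 change was 0.00. S100a13, a calcium-binding S100 protein, rose by 0.76 ± 0.12 in 1 probe set (161121_f_at; 231.4 and 215.4 against 385.2 and 385.0), while 2 brighter ones changed by 0.28 and 0.20 and did not pass. Rcan1, an inhibitor of calcineurin and a known target of its signalling, had signals of 610.0 and 672.7 against 948.7 and 950.5 and rose by 0.56 ± 0.10 (adjusted p = 0.0184 in limma). Fxyd1, phospholemman, which regulates the sodium pump, had 3683.9 and 3393.9 against 2669.6 and 2785.6 and fell by 0.37 ± 0.07 (adjusted p = 0.0284 in limma). Rcan1 and Fxyd1 lost their calls in limma without non-transgenic replicate 1 (adjusted p = 0.0571 and 0.0962), transgenic replicate 1 (0.0636 and 0.109) or transgenic replicate 2 (0.0541 and 0.0568), and S100a13 kept its call without any 1 array.

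The next smallest p-values of the wider list did not pass. Pvalb, the cytosolic calcium buffer parvalbumin of fast muscle, had signals of 272.2 and 204.8 against 439.9 and 334.6 (96719_i_at; log2 change 0.68, adjusted p = 0.0776 in limma), but a dim second probe set (96720_f_at) had -0.48. Camk2b, a calmodulin-dependent kinase, had 118.3 and 109.0 against 75.5 and 43.5 (log2 change -0.88, adjusted p = 0.0873 in limma). Itpr2, an inositol trisphosphate receptor, had log2 changes of -0.69 and -0.41 in its tested probe sets, and Prkar1a, a regulatory subunit of protein kinase A, of 0.19. Canx, the chaperone calnexin, had -0.64 in its dimmer probe set and -0.31 in its brighter one, which overlapped between groups. Of further genes, picked after their values were seen, the ryanodine receptor Ryr1 of skeletal muscle was dim (15.2 and 27.3 against 13.1 and 13.3) and was not tested. The L-type channel Cacna1c (log2 change -0.10) and the release channel regulator Fkbp1b (0.01) overlapped between groups.

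**Figure D5:**
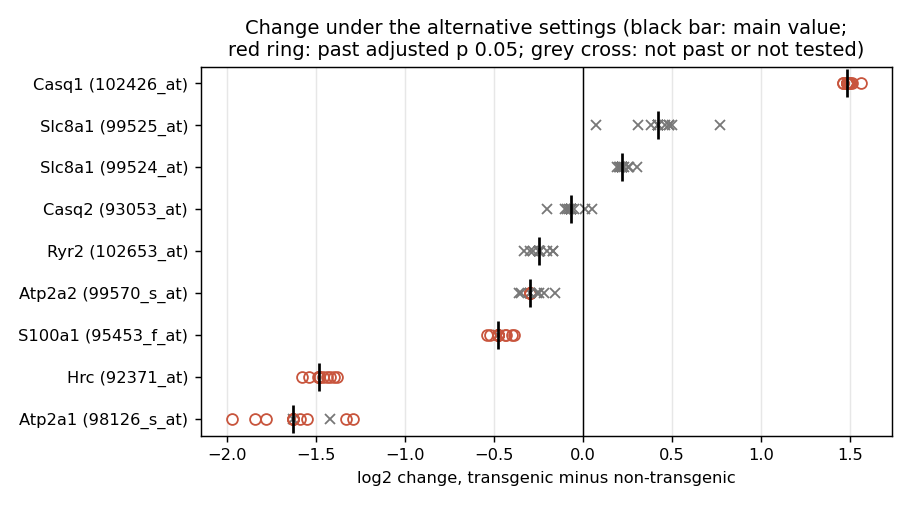
Log2 change of each tested member under the alternative settings, with a black bar at the main value, red rings where the adjusted p was below 0.05 and grey crosses elsewhere. Casq1 and Hrc are ringed throughout, whereas Ryr2, Casq2 and Slc8a1 are never ringed.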

How the data were processed

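The deposited values were the authors' signal intensities, with 1 linear value for each probe set on each array, as judged from the values. Not given in the sources used here are the signal software and the scaling target. After trimming the top and bottom 2%, every array averaged 150.1, so changes common to most RNA cannot be seen. Of 12488 probe sets, 66 controls were left out, 10833 had 1 gene symbol, 396 several and 1193 were not listed (10817 gene numbers matched RefSeq, with 0 symbols changed).

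Values were analysed as log2(signal + 9), 9 being the 20th percentile of the table, which understates changes of dim probe sets. The array medians lay within 0.2, so arrays were used as deposited. The lowest 40% by mean over the 4 arrays (below a signal of about 30.0) were left out. Groups were compared with limma 3.58.1 in R 4.3.3 (eBayes with a trend of variance on signal, two-sided, Benjamini-Hochberg adjustment, threshold 0.05; prior 5.05 and residual 2 degrees of freedom). Errors beside log2 changes are moderated standard errors. The fit was tested on simulated data. Isoform pairs used the brightest probe set of each gene; the planned pair of Sln and Pln was not run.

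Members and lists were chosen with earlier results of these data known. Named were all members, the called or 8 smallest-p genes of the wider list, and up to 4 called genes of each marker list; others were added after their values were seen. No detection calls were used, and 4 arrays limit the precision. Probe sets ending in _s_at or _f_at can mix related transcripts. This holds for those of Atp2a1 and Atp2a2, the bright S100a1 probe set and the called S100a13 probe set. The alternatives were other pseudocounts, scalings, filters and variance models, a replicate block and fits without each array.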

Additional observations from a re-analysis of the deposited data

How the results depend on the processing

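Casq1 and Hrc passed the threshold under all 13 alternatives, S100a1 under 12, Atp2a1 under 11 and Atp2a2 under 5. S100a1 failed without a trend of variance (adjusted p = 0.136 in limma). Casq2 changed sign after median centring (0.01) and without transgenic replicate 2 (0.05), and kept it under 11 of the 13 alternatives. Leaving out single arrays gave changes of -0.20 to 0.05. Of all tested probe sets, 303 were called higher and 288 lower, and 51.3% of calls were higher, against 66.8% after median centring. The counts were 172 and 157 without a filter, and 44 and 34 without a trend, where 1 member probe set was lower. Leaving out 1 array gave 125 to 232 higher, 158 to 191 lower and 2 to 3 lower members; the count was 2 without non-transgenic replicate 2. In the wider calcium list 0 were lower in limma after quantile normalization and without a filter (3 and 4 at an unadjusted p under 0.05), and 0 were higher and 0 lower without a trend (4 and 4). Leaving out 1 array gave 1 to 2 higher and 0 to 1 lower in that list; 1 was higher without non-transgenic replicate 1 (8 higher and 3 lower at an unadjusted p under 0.05) or transgenic replicate 1. The causes were not tested. The replicate numbers only name the samples: deviations of same-numbered arrays correlated at -0.0604 across probe sets. With the replicate block 1 member was higher and 4 lower, and 3 were higher and 3 lower in the wider list. The shift of Casq1 against Casq2 was 1.42 to 1.70 and that of Atp2a1 against Atp2a2 -1.72 to -0.94 over all alternatives run on it.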
